A study of Mus musculus with 10 samples.

Results

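Extracellular nucleotides and adenosine act on macrophages through a small set of receptors and enzymes, and 10 of their genes were followed here among the 55573 genes of the deposited table. They were chosen by name and role, with earlier results of these data known. The receptors are the P2Y receptors P2ry2, P2ry6 and P2ry14, the P2X channels P2rx4 and P2rx7, and the adenosine receptors Adora2a, Adora2b and Adora3. The enzymes are the ectonucleotidases Entpd1 and Nt5e. The RNA came from bone marrow-derived macrophages (BMDMs) of wild-type female C57BL/6 mice, grown in DMEM with 10% FBS and 50 ng/mL M-CSF and treated for 4 hours, with 2 libraries in each of 5 groups. One group received vehicle. The polyU group received 5 µg of polyU, a uridine ssRNA complexed with the lipid DOTAP. The PNPi+dG/rG group received 1 µM ulodesine, an inhibitor of purine nucleoside phosphorylase (PNP), with 5 µM deoxyguanosine (dG) and 5 µM guanosine (rG). The PNPi+dG/rG+polyU group, called the combination below, received all of these, and the R848 group received 1 ng/mL of resiquimod. TLR7 binds guanosine at one site and uridine-rich ssRNA at another, and R848 is a synthetic imidazoquinoline that takes the guanosine site, so the design asks how PNP inhibition and polyU act alone and together and how they compare with R848. All 5 groups were wild type and cultured in the same way. No PNP inhibitor without guanosines and no guanosines without the inhibitor were among the groups, so what either did alone cannot be told apart. The labels name DOTAP only together with polyU, and no group is labelled as DOTAP without it. Against vehicle, what is called polyU below therefore means polyU with DOTAP, whose parts cannot be told apart.

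Cells release ATP and UTP when they are stressed or activated. P2Y2 responds to ATP and UTP, P2Y6 to UDP and P2Y14 to UDP-glucose, all as G protein-coupled receptors, whereas P2X4 and P2X7 are cation channels opened by ATP, and P2X7, which needs high ATP, is the best known trigger of inflammasome activation and IL-1β release in macrophages. CD39, the product of Entpd1, cuts ATP and ADP to AMP, and CD73, the product of Nt5e, cuts AMP to adenosine. Of the adenosine receptors, those encoded by Adora2a and Adora2b raise cAMP and are known to restrain inflammatory cytokine production, and that of Adora3 lowers cAMP.

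Values are in CPM, reads on a gene per fixed number of reads on all genes of that library, with 14128128 to 38392592 reads on genes per library, and 3 reads correspond to 0.0781 to 0.212 CPM. Of the 10 genes, 9 were tested, together with all 11978 genes that reached 1 CPM in at least 2 libraries. Nt5e did not reach this level. Adora3 reached it only in the R848 libraries and Adora2a only with polyU, the combination or R848, so both entered the test through groups where they were high, and counts are also given over the 7 genes above this level in vehicle. Tests were made with limma on the log2 scale over all 10 libraries, a gene passed at a Benjamini-Hochberg adjusted p under 0.05, and a log2 fold change is the difference between group means of log2 values. The labels call the libraries of a group biological replicates without saying whether they came from separate mice or cultures, so p-values measure only the spread between these libraries. In RNA from a whole culture, fewer cells with a transcript and less of the transcript per cell cannot be told apart.

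All 10 macrophage markers examined were detected, and their summed level, mostly that of a few genes such as Lyz2 at 7756 to 11494 CPM, ran from 15277 to 18106 CPM over the 10 libraries. Single markers moved: with R848 2 rose and 7 fell, Cd14 going from 466 and 482 CPM in vehicle to 2985 and 3136, and Mertk from 40.3 and 40.6 to 5.36 and 5.66. Of the markers of other cell types, 4 of 5 mast cell genes had no read in any library, and all B cell and dendritic cell genes stayed under 1 CPM. Of the 6 T cell genes Cd3d and Cd3e had no read, Cd3g and Cd8a were at 0.112 CPM at most, Trac was at 1.31 to 5.95 and Cd4 was at 0.584 to 8.82, lower with R848 than with vehicle (adjusted p = 5.1e-09). The 6 fibroblast genes summed to 102.6 and 109.9 CPM in the R848 libraries and to 0.449 to 1.26 CPM in the other 8. Of these, Col1a1 reached 51.6 and 58.3 CPM with R848, while Lum stayed under 1 CPM. Neutrophil genes summed to 23.0 to 25.2 CPM with R848 and to 3.48 to 8.85 CPM elsewhere, nearly all of the rise being S100a8, which reached 23.4 CPM with R848 and 5.38 at most elsewhere. Camp also passed higher with R848, at 1.91 and 1.81 CPM against 0 and 0.0562 in vehicle (adjusted p = 0.00421). With the combination Camp was at 0.849 and 0.563 CPM and passed as well (adjusted p = 0.0145). In the R848 libraries S100a9 was at 0.0531 and 0 CPM, against 1.18 and 1.46 in vehicle, Ltf was at 0, and Ly6g had no read in any library. Endothelial genes, chiefly Kdr and Vwf, summed to between 207.2 and 245.6 CPM in the vehicle, polyU and PNPi+dG/rG libraries, 142.8 to 143.1 CPM with the combination and 63.5 to 68.8 CPM with R848. With the combination the fibroblast sum was 0.849 to 0.985 CPM, beside 0.449 to 1.01 in vehicle, and 2 of the 5 tested fibroblast genes passed higher, Pdgfra at 0.283 and 0.141 CPM and Dcn at 0.0708 and 0.141. The part of these other markers in the results below was not tested.

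The upstream sequences of members that moved strongly in each direction are given to show what lies before their starts. A RefSeq table of GRCm38.p6 held 14 promoters for 8 of the 10 genes, Adora2a and P2ry6 being those without an entry. Shown, on the strand of the gene, are the 250 bases before the start furthest upstream of Adora2b and P2ry2, which rose with R848, and of P2rx7 and Entpd1, which fell.
Adora2b, chr11:62248734-62248983, plus strand: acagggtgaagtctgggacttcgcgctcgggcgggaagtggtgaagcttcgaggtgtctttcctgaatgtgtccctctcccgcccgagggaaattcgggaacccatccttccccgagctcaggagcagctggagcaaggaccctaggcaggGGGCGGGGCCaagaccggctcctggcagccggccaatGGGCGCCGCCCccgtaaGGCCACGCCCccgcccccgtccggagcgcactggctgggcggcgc
P2ry2, chr7:101012054-101012303, minus strand: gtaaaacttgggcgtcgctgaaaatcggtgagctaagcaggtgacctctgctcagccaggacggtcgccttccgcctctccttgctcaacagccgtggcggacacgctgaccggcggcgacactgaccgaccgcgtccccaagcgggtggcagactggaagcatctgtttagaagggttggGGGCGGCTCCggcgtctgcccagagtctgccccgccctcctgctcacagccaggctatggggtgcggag
P2rx7, chr5:122643677-122643926, plus strand: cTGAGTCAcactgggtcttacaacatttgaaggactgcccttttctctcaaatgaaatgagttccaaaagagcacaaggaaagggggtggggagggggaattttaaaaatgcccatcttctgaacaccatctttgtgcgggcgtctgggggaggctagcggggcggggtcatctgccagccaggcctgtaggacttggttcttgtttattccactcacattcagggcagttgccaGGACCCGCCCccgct
Entpd1, chr19:40612116-40612365, plus strand: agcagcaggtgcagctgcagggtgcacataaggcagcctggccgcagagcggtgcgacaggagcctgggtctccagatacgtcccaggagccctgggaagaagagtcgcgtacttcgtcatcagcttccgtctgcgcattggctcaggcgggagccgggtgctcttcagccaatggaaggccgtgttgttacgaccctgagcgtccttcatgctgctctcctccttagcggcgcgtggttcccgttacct
Capitals mark matches to the letters searched on both strands. These were GGG and CC set apart by any 5 bases for NF-κB, TGANTCA for AP-1, GAAA repeated after any 2 bases for the core of the interferon-stimulated response element, TGACGTCA for the cAMP response element and TTCNNNGAA for the GAS element. Adora2b had 4 matches to the NF-κB letters, of which a pair overlap, P2ry2 had 1, P2rx7 had 1 and 1 to the AP-1 letters, and Entpd1 had none to any of the 5. Among all 32851 mouse promoters of this length, 45.8% held the NF-κB letters, 6.75% AP-1, 2.98% the interferon-stimulated core, 1.55% the cAMP element and 7.02% GAS. With a match in so large a share of promoters, the NF-κB letters separate neither the genes that rose from P2rx7 nor these genes from others.

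In vehicle-treated BMDMs the 10 genes covered a wide range of levels. Scaled to CPM per kb of exon, which allows genes to be compared, P2ry6 stood highest at 88.5 ± 3.57 (SD, n = 2 as throughout) and P2rx4 followed at 26.5 ± 0.453. Entpd1 at 11.4 ± 0.430, P2rx7 at 9.65 ± 0.168, P2ry2 at 8.85 ± 0.857 and Adora2b at 4.79 ± 0.714 formed a middle range, and P2ry14 was at 0.558 ± 0.0426. Adora3 at 0.143 ± 0.0318, Adora2a at 0.119 ± 0.0129 and Nt5e at 0.104 ± 0.00932 were lowest, and within this low range the libraries of neighbours overlapped. Of the adenosine receptor genes Adora2b had the highest level in vehicle, and Adora1 had no read in any library. The lengths are unions of all exons, and scaling to the longest transcript gave the same order except for the lowest pair.

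**Figure D1:**
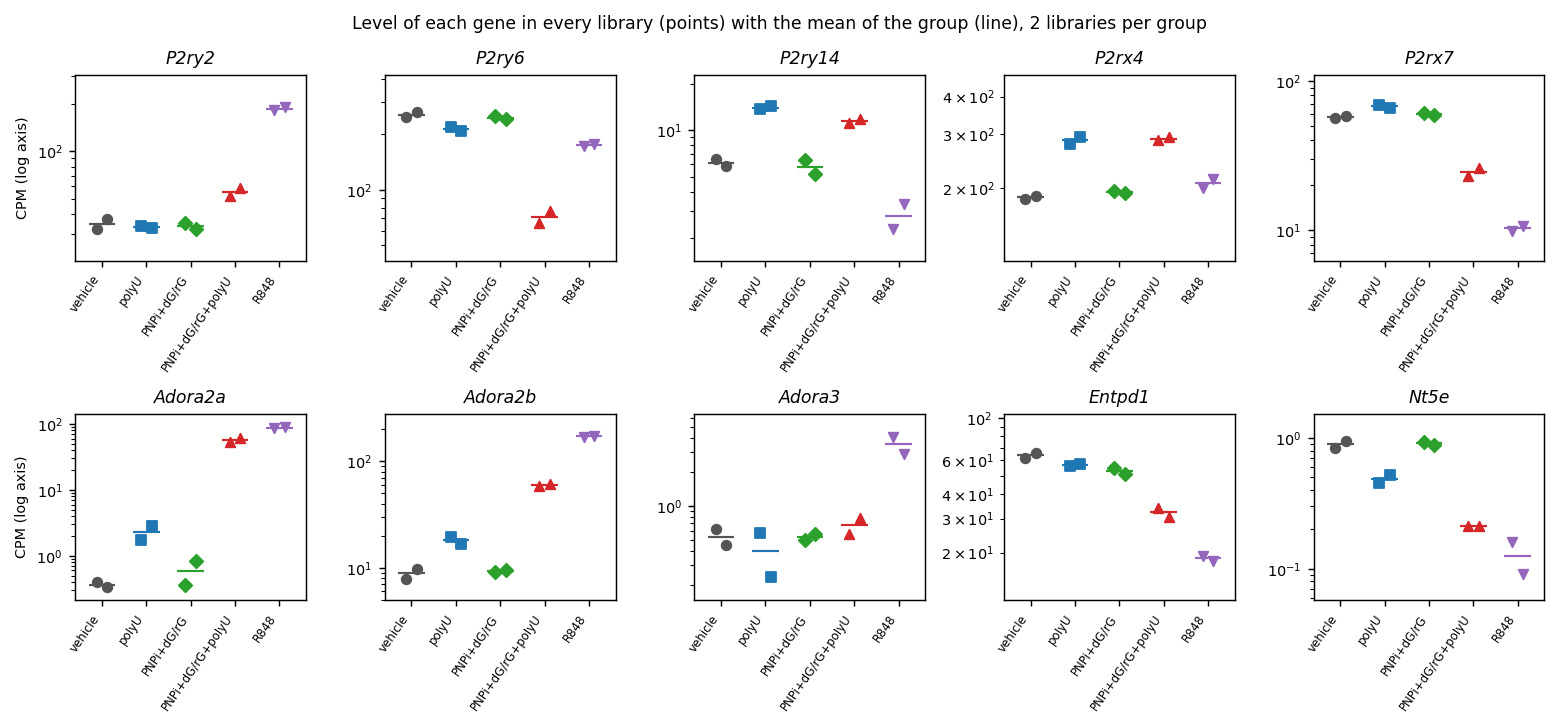
Level in CPM on a log axis of each of the 10 genes in every library of the 5 groups, with points for the 2 libraries and a line for their mean. Adora2a went from 0.337 and 0.393 CPM in vehicle to 87.7 and 89.4 with R848 and 53.9 and 60.9 with PNPi+dG/rG+polyU, while Entpd1 and Nt5e were lowest in the same groups.

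Among the treatments, PNPi+dG/rG alone changed none of these genes by the test, polyU alone raised mainly Adora2a, P2ry14, Adora2b and P2rx4, and the combination changed 8 and R848 all 9 of those tested. With polyU against vehicle, 6 of the 9 tested genes passed (5 higher, 1 lower), where 39.3% of all tested genes passed (20.6% higher, 18.7% lower), and 3, all higher, at 2-fold or more, where 3.99% of all genes did. With PNPi+dG/rG against vehicle, limma called 0 of 9, where 0.801% of all genes passed, and 1 of the 9, Entpd1, had an unadjusted p under 0.05, as had 1076 of all genes. With the combination against vehicle, 8 of 9 passed (5 higher, 3 lower) beside 68.9% of all genes (22.2% higher, 46.7% lower), and 4 were changed at least 2-fold (2 higher, 2 lower) beside 22.4%. With R848 all 9 passed (5 higher, 4 lower) beside 82.1% of all genes (19.2% higher, 62.9% lower), and 7 were changed at least 2-fold (4 higher, 3 lower) beside 39.2%. For the combination and R848 these counts stand against a background in which most genes passed. Over the 7 genes above 1 CPM in vehicle, 5 passed with polyU (4 higher, 1 lower), 7 with the combination (4 higher, 3 lower) and 7 with R848 (3 higher, 4 lower). The 4 comparisons share the vehicle libraries.

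CPM are shares of a library, and the median log2 fold change of all tested genes was 0.02 with polyU, 0.02 with PNPi+dG/rG, -0.22 with the combination and -0.50 with R848. The medians of the 7 genes above 1 CPM in vehicle were 0.23, -0.04, 0.64 and -0.55. When each library was centred on its median gene, the counts of the 9 genes against vehicle were 4 higher and 2 lower for polyU, and 5 higher and 3 lower for both the combination and R848, and over the 7 genes they were 3 and 2, 4 and 3, and 3 and 3. Over all genes, centring changed the shares from 22.2% higher and 46.7% lower to 33.2% and 33.2% for the combination, and from 19.2% and 62.9% to 43% and 34.6% for R848. For polyU the shares went from 20.6% higher and 18.7% lower to 17.2% and 22.8%. P2ry6 with R848 was the only one of the 9 to turn its direction against vehicle after centring at a treatment where it had passed.

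**Figure D2:**
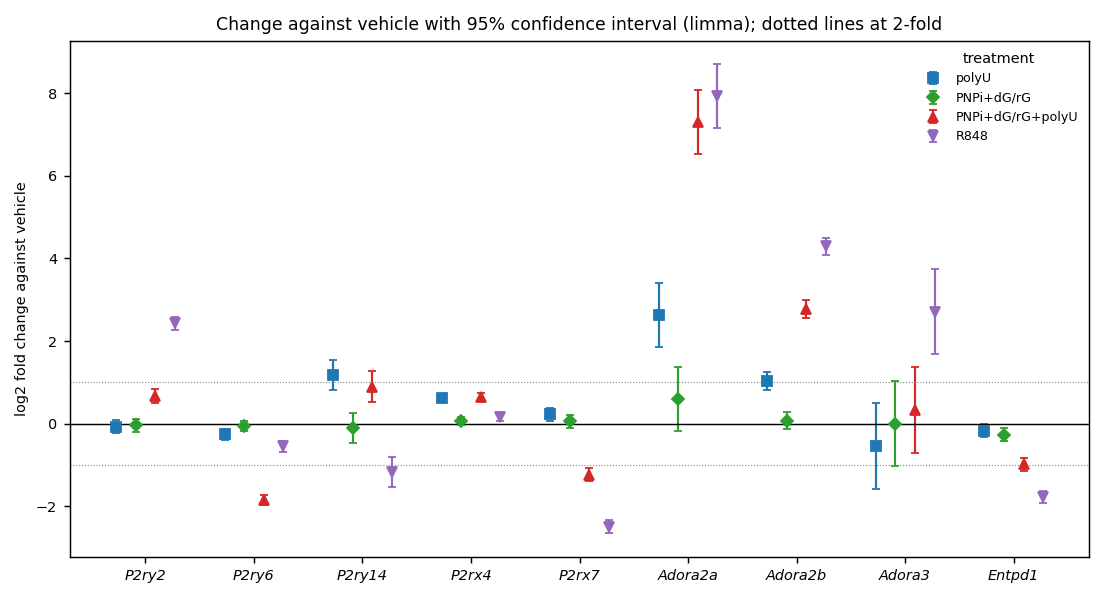
Log2 fold change against vehicle (y axis) with its 95% confidence interval for the 9 tested genes under the 4 treatments, with dotted lines at 2-fold. Adora2a and Adora2b lie highest with R848 (7.93 and 4.29) and PNPi+dG/rG+polyU (7.30 and 2.78), and with PNPi+dG/rG the interval includes 0 for all but Entpd1 (-0.42 to -0.11) and is widest for Adora3 (-1.03 to 1.03).

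Of the 9 tested genes, Adora2a and Adora2b had the largest changes against vehicle with the combination and R848, while with polyU P2ry14 stood between them. Adora2a (chr10:75316877-75334784, plus strand of GRCm38, as all positions here) was at 0.393 and 0.337 CPM in vehicle, which are 7 and 6 reads, and at 1.76 and 2.85 CPM with polyU. It was at 0.365 and 0.829 CPM with PNPi+dG/rG, at 53.9 and 60.9 with the combination and at 87.7 and 89.4 with R848. The PNPi+dG/rG libraries overlapped with vehicle and no other pair of groups overlapped. Relative to vehicle its log2 value was higher by 2.62 with polyU (SE 0.345, adjusted p = 0.000187), 7.30 with the combination (adjusted p = 1.43e-08) and 7.93 with R848 (adjusted p = 3.9e-09). Because the vehicle value rests on 13 reads in both libraries together, the read ratio was also bounded by counting error alone, and it was 157-fold for the combination (95% exact interval 91.7 to 296) and 243-fold for R848 (142 to 457). For PNPi+dG/rG alone the fold was 1.51 with a 95% interval of 0.885 to 2.58 (adjusted p = 0.688), so no change was detectable at this depth. Adding 1 CPM before taking logs brought the log2 fold changes with polyU, the combination and R848 down to 1.26, 5.42 and 6.04.

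Adora2b (chr11:62248984-62266453, plus strand) started higher and rose with every treatment but PNPi+dG/rG. It was at 7.91 and 9.78 CPM in vehicle, 9.06 and 9.46 with PNPi+dG/rG and 19.3 and 16.8 with polyU. The level reached 59.0 and 61.7 CPM with the combination and 169 and 175 with R848, and only vehicle and PNPi+dG/rG overlapped. Against vehicle it was 2.05-fold higher with polyU (adjusted p = 7.12e-07), 6.86-fold with the combination (adjusted p = 6.91e-13) and 19.6-fold with R848 (adjusted p = 1.63e-15). Per kb of exon, Adora2b exceeded Adora2a 33.4- and 48.1-fold in the vehicle libraries, 1.82- and 1.68-fold with the combination and 3.20- and 3.26-fold with R848. The vehicle ratios rest on the few Adora2a reads.

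Adora3 (chr3:105870858-105908926, plus strand) shares 779 bases of exon with Tmigd3 on the same strand, so its reads are uncertain. Tmigd3 itself was listed at 0.114 CPM at most. Adora3 was at 0.617 and 0.449 CPM in vehicle, 0.568 and 0.232 with polyU, 0.495 and 0.561 with PNPi+dG/rG and 0.566 and 0.774 with the combination, and these 4 groups overlapped. With R848 it was at 4.09 and 2.91 CPM, above all other libraries. The R848 libraries are those through which Adora3 met the filter, so its call there, at a log2 fold change of 2.71 (SE 0.484, adjusted p = 8.88e-05), is not independent of the filter. Without the filter the adjusted p was 0.000206, the read ratio was 6.26 (95% exact interval 3.89 to 10.7), and with 1 CPM added the log2 fold change was 1.54. The fibroblast markers were high in the same 2 libraries. For the combination the fold was 1.26, with an interval of 0.615 to 2.57 (adjusted p = 0.56).

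Among the P2Y receptors, P2ry2 rose and P2ry6 fell with the combination and with R848, although the fall of P2ry6 with R848 was lost after centring, and P2ry14 rose with polyU and fell with R848. P2ry2 (chr7:100996568-101012866, minus strand) was at 32.4 and 37.1 CPM in vehicle, 35.3 and 32.3 with PNPi+dG/rG and 33.4 and 32.7 with polyU, and these 3 groups overlapped. It was at 52.2 and 58.5 CPM with the combination and 182 and 191 with R848, clear of all others. The change was 1.59-fold with the combination (adjusted p = 1.32e-06) and 5.38-fold with R848 (adjusted p = 8.61e-14), and with polyU it was 0.953-fold with an interval of 0.850 to 1.07 (adjusted p = 0.514).

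P2ry6 lies beside P2ry2 on the same strand (chr7:100937630-100974649) and moved differently. It was at 248 and 263 CPM in vehicle, 249 and 242 with PNPi+dG/rG, 218 and 209 with polyU, 172 and 178 with R848 and 66.0 and 76.4 with the combination. Vehicle and PNPi+dG/rG overlapped, and the combination was lowest. The log2 fold change was -1.85 with the combination (SE 0.0604, adjusted p = 2.96e-13), a 3.60-fold decrease, -0.55 with R848 (adjusted p = 5.11e-07) and -0.26 with polyU (adjusted p = 0.00325). The R848 decrease was close to the -0.50 of the median gene, and after centring it became 0.05 (adjusted p = 0.469), whereas the combination still gave -1.64 (adjusted p = 8.58e-13). Per kb of exon, P2ry6 exceeded P2ry2 9.63- to 10.4-fold in vehicle and 1.72- to 1.78-fold with the combination.

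P2ry14 (chr3:59113855-59153618, minus strand) lies within Med12l on the opposite strand, without a shared exon. It was at 6.51 and 5.84 CPM in vehicle, 6.38 and 5.19 with PNPi+dG/rG, 13.7 and 14.3 with polyU, 11.2 and 11.8 with the combination and 2.28 and 3.31 with R848. Only vehicle and PNPi+dG/rG overlapped. Its log2 fold change was 1.18 with polyU (adjusted p = 6.6e-05), and it was 1.86-fold higher with the combination (adjusted p = 0.000283) and 2.24-fold lower with R848 (adjusted p = 1.45e-05). After centring, the log2 fold change with R848 was -0.57 instead of -1.17 (adjusted p = 0.00679).

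The neighbouring P2X genes also differed. P2rx4 (chr5:122707544-122729738, plus strand) was at 184 and 189 CPM in vehicle, 195 and 193 with PNPi+dG/rG, 201 and 213 with R848, 280 and 295 with polyU and 288 and 293 with the combination. The groups with polyU overlapped each other and stood above all others. The rise was 1.54-fold with polyU (adjusted p = 3.73e-08), 1.56-fold with the combination (adjusted p = 3.85e-09) and 1.11-fold with R848 (adjusted p = 0.0062). The R848 value depended on the scaling and on 1 library: its log2 fold change of 0.15 became 0.75 after centring (adjusted p = 3.77e-10) and 0.11 without R848 replicate 2 (adjusted p = 0.0839).

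P2rx7 (chr5:122643911-122691432, plus strand, with Mir8115 inside an exon) fell with the combination and with R848. It was at 56.9 and 58.3 CPM in vehicle, 60.8 and 59.2 with PNPi+dG/rG, 69.1 and 66.2 with polyU, 22.9 and 26.1 with the combination and 9.93 and 10.6 with R848, with no overlap between groups. Lack of overlap alone was a weak criterion with 2 libraries per group: PNPi+dG/rG differed from vehicle 1.04-fold and did not pass (adjusted p = 0.903). P2rx7 was 2.35-fold lower with the combination (adjusted p = 5.98e-10) and 5.62-fold lower with R848 (adjusted p = 4.33e-14). With polyU it was 1.17-fold higher (adjusted p = 0.0233), a call that was lost without vehicle replicate 1 (adjusted p = 0.109), vehicle replicate 2 (0.056), polyU replicate 1 (0.115) or polyU replicate 2 (0.0511). Per kb of exon, P2rx4 exceeded P2rx7 2.75-fold in each vehicle library, 9.55- and 10.7-fold with the combination and 17.1- and 17.2-fold with R848.

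Of the ectonucleotidases, Entpd1 (chr19:40612366-40741602, plus strand) was at 62.1 and 65.5 CPM in vehicle, 55.9 and 57.8 with polyU, 54.9 and 50.9 with PNPi+dG/rG, 33.9 and 30.7 with the combination and 19.2 and 18.1 with R848. No groups overlapped. It was 1.98-fold lower with the combination (adjusted p = 6.35e-09) and 3.42-fold lower with R848 (adjusted p = 1.98e-12). The log2 fold changes of -0.17 with polyU (adjusted p = 0.0832) and -0.27 with PNPi+dG/rG (adjusted p = 0.139) did not pass. After centring, the value with polyU was -0.21 and passed (adjusted p = 0.034). The summed endothelial markers, chiefly Kdr and Vwf, moved with Entpd1, being lowest with R848 and next lowest with the combination. Kdr also passed lower with PNPi+dG/rG (log2 fold change -0.42, adjusted p = 0.009). Of the other endothelial markers, Cdh5, at 1.06 to 2.50 CPM, passed in no comparison against vehicle. Tek was at 0.0535 CPM at most and Emcn at 0.0306. The part of the endothelial markers was not tested.

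Nt5e (chr9:88327197-88372092, plus strand) was near the limit of detection. It was at 0.842 and 0.955 CPM in vehicle, 0.938 and 0.882 with PNPi+dG/rG, 0.455 and 0.523 with polyU, 0.212 and 0.211 with the combination and 0.159 and 0.0919 with R848, the values in the last 2 groups being 3 reads in every library. By reads, vehicle exceeded the combination 4.24-fold (32 against 6 reads, 95% exact interval 1.75 to 12.4) and R848 7.71-fold (32 against 6 reads, 3.18 to 22.6), and exceeded polyU 1.84-fold with an interval of 0.991 to 3.53. In a fit without the filter on low values, over 25920 genes, the adjusted p was 0.0125 for the combination, 0.000747 for R848 and 0.427 for polyU.

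What PNPi+dG/rG did to these genes depended on polyU for 6 of the 9. Against polyU alone, PNPi+dG/rG+polyU passed for 6 of 9 genes (3 higher, 3 lower), where 63.3% of all genes passed (15.8% higher, 47.5% lower), and for 4 at 2-fold or more, where 15.5% did. The difference that polyU made to the effect of PNPi+dG/rG, tested as an interaction, passed for 6 of 9 (3 higher, 3 lower) beside 50.7% of all genes (11.8% higher, 38.9% lower), and for 4 at 2-fold or more (2 higher, 2 lower) beside 13.4%. With centring, the interaction passed for 4 higher and 2 lower, beside 24.1% higher and 17% lower of all genes. Without centring, the interaction was 4.08 on the log2 scale for Adora2a (SE 0.488, adjusted p = 7.02e-05), 1.67 for Adora2b (SE 0.140, adjusted p = 1.06e-07) and 0.78 for P2ry2 (adjusted p = 2.95e-05), whose effects with polyU were 4.68, 1.74 and 0.74. For P2ry6 it was -1.54 (SE 0.0855, adjusted p = 9.89e-10), for P2rx7 -1.53 (SE 0.107, adjusted p = 1.28e-08) and for Entpd1 -0.55 (adjusted p = 0.000415). For Entpd1 it was -0.26 after centring (adjusted p = 0.0589).

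Of the genes that polyU alone had raised, P2rx4 and P2ry14 did not pass as higher again on the CPM scale. For P2rx4 the change from polyU to the combination was 1.01-fold, with an interval of 0.945 to 1.08 (adjusted p = 0.793), and its interaction was -0.04 (adjusted p = 0.595). Both depended on the scaling: after centring the change from polyU was 0.27 on the log2 scale (adjusted p = 0.000111) and the interaction 0.24 (adjusted p = 0.00643), each then past the threshold. P2ry14 had a fold of 0.822 with an interval of 0.635 to 1.06 (adjusted p = 0.168). Adora3, at 1.82-fold with an interval of 0.891 to 3.72 (adjusted p = 0.131), passed once polyU replicate 1 was left out (log2 fold change 1.51, adjusted p = 0.0262).

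**Figure D3:**
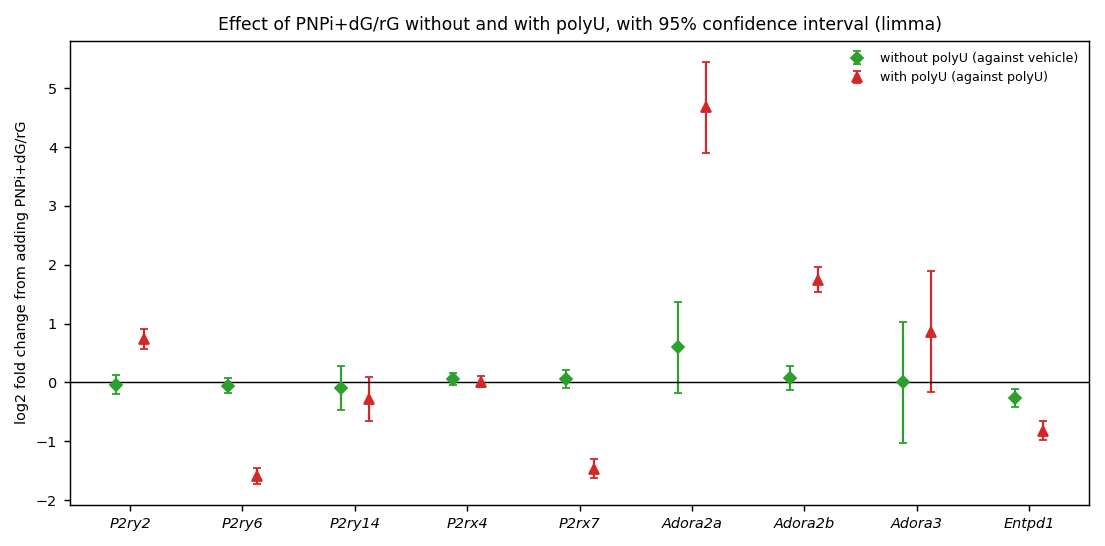
Log2 fold change from adding PNPi+dG/rG (y axis) without polyU, against vehicle, and with polyU, against polyU, for the 9 tested genes, with 95% confidence intervals from limma. The values differ most for Adora2a (0.60 without and 4.68 with polyU), and for P2rx4 they are 0.06 and 0.01.

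The combination and R848 engage the same receptor in different ways, and 8 of the 9 genes differed between them (4 higher and 4 lower with the combination), where 70.7% of all genes did (53.9% higher, 16.9% lower). With centring 3 were higher and 5 lower, where 28.4% of all genes were higher and 37.5% lower. Over the 7 genes above 1 CPM in vehicle, 4 were higher and 3 lower, and with centring 3 and 3. Of the 9, 6 differed at least 2-fold, where 20.7% of all genes did. P2ry14 was 4.18-fold higher with the combination (adjusted p = 4.24e-08) and P2rx7 2.39-fold higher (adjusted p = 7.66e-10). Entpd1 was 1.73-fold higher (adjusted p = 1.12e-07) and P2rx4 was higher by 0.49 on the log2 scale (adjusted p = 1.26e-07), which was 0.11 after centring (adjusted p = 0.0509). P2ry2 was 3.37-fold lower (adjusted p = 2.23e-11), Adora2b 2.85-fold lower (adjusted p = 2.08e-09), P2ry6 2.46-fold lower (adjusted p = 4.46e-11) and Adora3 5.21-fold lower (adjusted p = 0.000416). P2ry6 and P2ry14 thus separated the treatments in opposite directions within the P2Y family. The labels name DOTAP for the combination and not for R848, so its part in these differences cannot be told apart.

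Adora2a was 1.55-fold lower with the combination than with R848, with a ratio of 0.647 and an interval of 0.379 to 1.10 (adjusted p = 0.128). The spread behind this interval was shared over all 5 groups, among which the PNPi+dG/rG libraries lay apart at 0.365 and 0.829 CPM. The difference passed with the 2 groups fitted alone (adjusted p = 4.92e-07), with a pseudocount of 1 CPM (0.00183), after centring (0.0284), without PNPi+dG/rG replicate 1 (0.0124) and without PNPi+dG/rG replicate 2 (0.0141). The libraries were 53.9 and 60.9 CPM against 87.7 and 89.4.

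The order of levels per kb of exon changed with treatment. With the combination, P2rx4 was highest at 41.4 ± 0.538 CPM per kb, ahead of Adora2b at 32.7 ± 1.02, P2ry6 at 24.7 ± 2.55, Adora2a at 18.7 ± 1.61 and P2ry2 at 14.1 ± 1.12, and no neighbours in the order overlapped. Scaled to the longest transcript, P2ry6 was placed above Adora2b. With R848, Adora2b was highest at 93.3 ± 2.47, ahead of P2ry6 at 60.6 (libraries 59.6 and 61.5), P2ry2 at 47.5 ± 1.75, P2rx4 at 29.5 ± 1.27 and Adora2a at 28.9 ± 0.393, of which the last pair overlapped. Entpd1, at 3.34 ± 0.143, and P2rx7, at 1.72 ± 0.0786, were below Adora2a and Adora2b, which they had exceeded in vehicle.

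**Figure D4:**
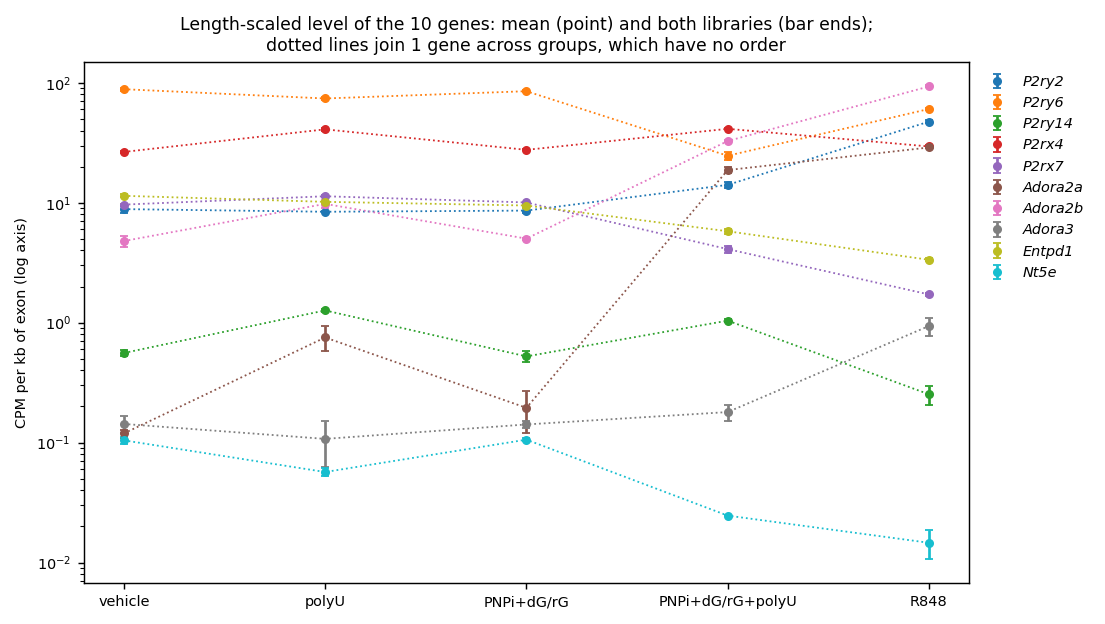
Mean level in CPM per kb of exon on a log axis for the 10 genes in the 5 groups, with bars that end at the 2 libraries and dotted lines joining each gene across groups, which have no order. Adora2b is at 4.79 in vehicle, in sixth place, and at 93.3 with R848, in first place.

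Genes around these receptors were read from lists of the other P2 receptors, the other ectonucleotidases, nucleoside transport and adenosine metabolism, nucleotide release, and the cAMP arm below the A2 receptors, 65 genes of which 45 were tested. None passed with PNPi+dG/rG, where 0.801% of all genes did. Of 10 other P2 receptors 3 were tested, and 1 rose and 1 fell with polyU and with the combination, while 2 fell with R848. Over all genes, 20.6% rose and 18.7% fell with polyU, 22.2% and 46.7% with the combination, and 19.2% and 62.9% with R848. P2ry1, a receptor for ADP, went from 19.9 and 22.6 CPM to 2.90 and 2.39 with the combination and 1.06 and 1.13 with R848 (log2 fold change -4.27, adjusted p = 2.62e-13). P2ry12 fell by 2.57 on the log2 scale with R848 (adjusted p = 4.18e-07), and P2ry13 rose by 1.5 with polyU (adjusted p = 0.000994), both being receptors for ADP too. With the combination P2ry12 and P2ry13 averaged 2.75 and 2.26 CPM, beside 3.62 and 1.26 in vehicle. With R848, all 3 tested ADP receptors had values below 0, of which the -0.63 of P2ry13 did not pass (adjusted p = 0.0653).

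Of the 14 genes listed as other ectonucleotidases 8 were tested, and 4 rose and 4 fell with the combination and with R848. Beside these, 22.2% of all genes rose and 46.7% fell with the combination, and 19.2% and 62.9% with R848. Where in the cell each product of this list acts was not examined. The list medians of -0.09 and -0.11 compare with -0.22 and -0.50 over all genes. Cd38, whose product breaks down NAD outside the cell, went from 0.393 and 0.449 CPM to 7.29 and 8.30 with the combination and 55.3 and 56.2 with R848 (log2 fold change 7.05, adjusted p = 8.26e-05). Acp3 (listed as Acpp), an acid phosphatase that can turn AMP into adenosine, rose by 3.07 on the log2 scale with R848 (adjusted p = 3.11e-08) and Enpp4 by 2.32 with the combination (adjusted p = 3.12e-10), whereas Entpd6 fell by 2.55 with R848 (adjusted p = 7.19e-12). With the combination Acp3 and Entpd6 moved the same way, averaging 3.81 and 7.52 CPM beside 1.21 and 22.9 in vehicle. Enpp4 averaged 4.13 CPM in vehicle, 20.7 with the combination and 6.59 with R848. Entpd4 and its near copy Entpd4b were both listed at 0 in all libraries, which reads shared between copies can give, so their level is uncertain.

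Of 14 genes of nucleoside transport and adenosine metabolism 10 were tested, with 4 higher and 5 lower with the combination (list median -0.17) and 3 higher and 7 lower with R848 (list median -1.0). The shares over all genes were 22.2% higher and 46.7% lower with the combination, and 19.2% and 62.9% with R848. After centring the list counts were 4 and 3, and 4 and 6. The centred shares over all genes were 33.2% higher and 33.2% lower, and 43% and 34.6%. Slc28a2, a concentrative importer of purine nucleosides and uridine, rose from 18.1 and 19.3 CPM to 123 and 119 with the combination (log2 fold change 2.70, adjusted p = 4.56e-14). The equilibrative transporters fell with R848, Slc29a2 by 2.24 (adjusted p = 4.75e-08) and Slc29a3, which works in endolysosomes, by 2.08 (adjusted p = 3.1e-14). Slc29a2 was also lower with the combination, at 1.49 and 1.34 CPM beside 4.88 and 6.35 in vehicle. So was Slc29a3, at 34.5 and 33.9 CPM beside 86.1 and 85.6. Ampd3, an AMP deaminase, rose by 1.90 with R848 (adjusted p = 1.71e-15). It averaged 106 CPM in vehicle, 369 with the combination and 393 with R848. Pnp, the target of ulodesine and chosen after its values were seen, was at 46.3 and 47.8 CPM in vehicle, 47.8 and 42.2 with PNPi+dG/rG, 79.5 and 82.6 with polyU (log2 fold change 0.79, adjusted p = 1.44e-07), 135 and 137 with the combination (1.53, adjusted p = 6.12e-12) and 124 and 136 with R848 (1.47, adjusted p = 5.19e-12).

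Among 9 tested genes of nucleotide release, 4 rose and 5 fell with the combination (list median -0.25) and 5 rose and 4 fell with R848 (list median 0.53), beside 68.9% and 82.1% of all genes that passed. After centring these were 4 and 4, and 5 and 3, beside 33.2% higher and 33.2% lower, and 43% and 34.6%, of all genes. Gja1, which encodes connexin 43, rose by 4.84 on the log2 scale with R848 to 106 and 107 CPM (adjusted p = 4.8e-13), in the libraries that held the fibroblast markers, and by 2.22 with the combination (adjusted p = 1.38e-08), where those markers summed to 0.849 to 0.985 CPM, and their part was not tested. Calhm6 rose by 3.71 with the combination (adjusted p = 2.52e-09), and Slc17a9, which loads ATP into vesicles, fell by 2.44 (adjusted p = 9.21e-10) and Calhm2 by 2.43 (adjusted p = 2.52e-12) with R848. With the combination Slc17a9 and Calhm2 were lower too, averaging 5.51 and 9.17 CPM beside 11.6 and 26.8 in vehicle. Calhm6 averaged 0.786 CPM in vehicle, 10.2 with the combination and 2.35 with R848.

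In the cAMP arm, 15 of 17 genes were tested, and 11 fell and 1 rose with the combination, 11 fell and 2 rose with R848, and 8 fell and 1 rose with polyU. The second that rose with R848, Adcy6, was named after its values were seen and had libraries without a read. Of all genes, 46.7% fell and 22.2% rose with the combination, 62.9% and 19.2% with R848, and 18.7% and 20.6% with polyU. After centring, 10 of the list fell and 2 rose with the combination, beside 33.2% and 33.2% of all genes. With R848 these were 6 and 4, beside 34.6% and 43%. The list medians were -0.85 and -0.94, beside -0.22 and -0.50 over all genes. Pde4b, a phosphodiesterase that breaks down cAMP, rose from 5.33 and 6.74 CPM to 238 and 229 with the combination (log2 fold change 5.28, adjusted p = 7.16e-07) and 484 and 496 with R848 (6.35, adjusted p = 1.5e-07). Pde3b and Pde4a, which also break down cAMP, fell with R848, by 2.21 (adjusted p = 2.51e-09) and 2.20 (adjusted p = 5.12e-10). With the combination they were lower too, averaging 3.88 and 13.2 CPM beside 15.5 and 29.5 in vehicle. Rapgef3, which encodes the cAMP sensor Epac1, was at 5.56 and 4.33 CPM in vehicle, 0.566 and 0.281 with the combination and 0 and 0.276 with R848, and its fitted fold rests on the library without a read.

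**Figure D5:**
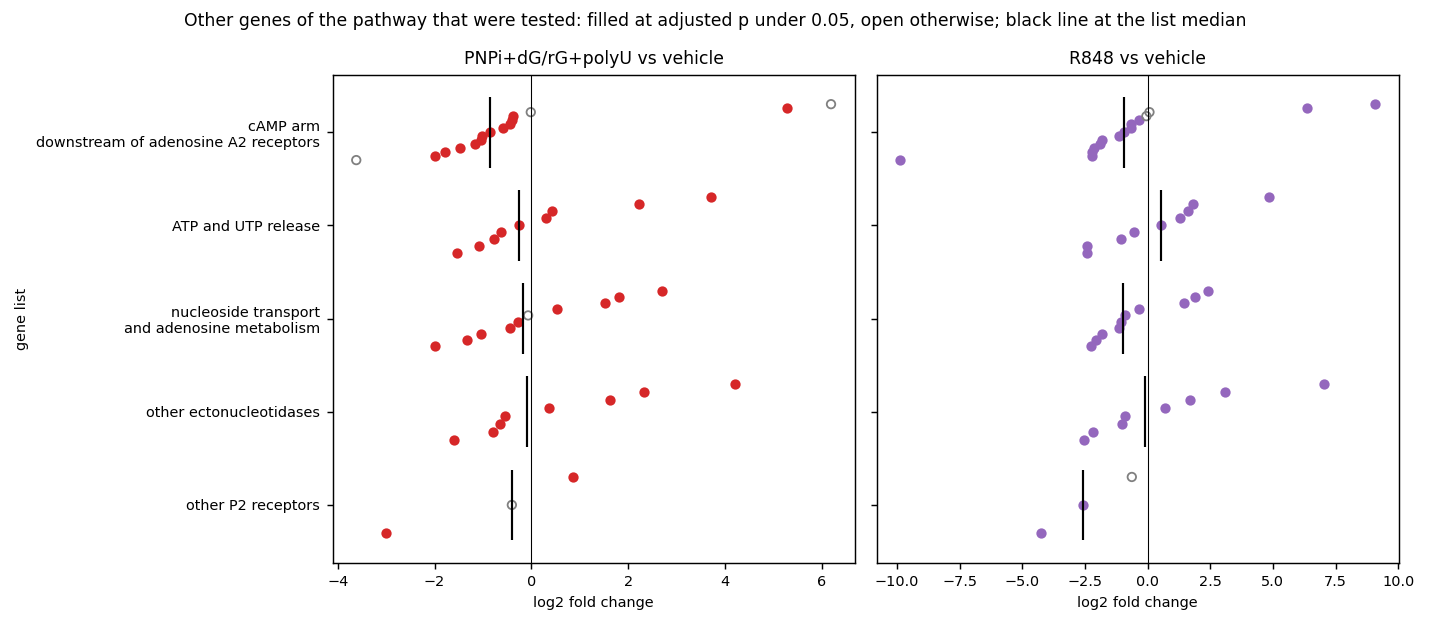
Log2 fold change against vehicle (x axis) of the tested genes of 5 lists for PNPi+dG/rG+polyU (left) and R848 (right), 1 point per gene, filled at an adjusted p under 0.05, with a line at the median of each list. In the cAMP arm 11 genes lie left of 0 and passed in each panel, and the outermost points of this list are genes with libraries at or near 0 reads.

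For each gene with a change of at least 2-fold that passed, the genes with the most similar log2 values over the 10 libraries were sought among 8459 genes averaging at least 10 CPM. The values are descriptions, since the 10 points fall into 5 treatment groups and all genes that respond to the same groups resemble each other. Closest to Adora2a were Ehd1 and Socs3, a feedback inhibitor of cytokine signalling (Pearson r = 0.997 and 0.996), and closest to Adora2b were Ptges, a prostaglandin E synthase, and N4bp1 (both 0.998). P2ry2 was nearest to Alas1 and Lrrc8d (0.998 and 0.996), the latter a volume-regulated channel subunit from the release list, and P2rx7 to Nrros and Lmna (both 0.998). For Entpd1 these were Gpr137b-ps and Zfp219 (both 0.996), for P2ry6 Il16 and Ptpn7 (0.991 and 0.990), for P2ry14 Atp5f1 and C1qc (0.994 and 0.989), and for Adora3 Zhx1 and Sfr1 (0.985 and 0.979).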

How the data were processed

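Per the methods, libraries were prepared with a stranded mRNA kit, sequenced as 50 bp single reads, demultiplexed with bcl2fastq 2.19.1.403, mapped with STAR 2.27a to GRCm38 and counted on Ensembl release 97 genes. The rule for reads on overlapping genes was not given in the sources used here. The authors deposited 1 table of CPM plus an offset of 0.0001, for which columns were matched to samples by name. Depth was read from the step between low values, 100% of which were whole multiples (tolerance 0.1). CPM carry no correction for strongly induced genes, which lower the share of all others. limma 3.58.1 (R 4.3.3, eBayes with trend and robust estimates) was fitted to log2 of the deposited values of all 10 libraries, which share 1 estimate of the spread, with Benjamini-Hochberg adjustment over 11978 genes. The fit was tested on simulated data in which only some genes of the polyU group were changed. Such data lack the broad shifts seen with the combination and R848, so that test does not cover those comparisons. Read ratios have exact 95% intervals, which cover counting error only. Among genes with at least 50 reads in a group, 15.8% to 26.3% differed between its replicates at an unadjusted chi-square p under 0.05. Counting noise alone also brings some genes past this threshold. Positions and exon lengths are from GENCODE M21, in which 55394 of the identifiers have a symbol. All 10 members are named. Pathway genes named are up to 4 per list with the largest change against vehicle that passed at 2-fold and a mean of at least 1 CPM. The members and lists were chosen with earlier results of these data known. Alternatives were other pseudocounts, filters, centring, plain eBayes, only the groups compared, a replicate block and leaving out each library.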

Additional observations from a re-analysis of the deposited data

Results flagged for a closer look

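The effect of PNPi+dG/rG differed between cells with and without polyU by at least 2-fold, in a test of the interaction, for 4 genes. On the log2 scale the difference was 4.08 for Adora2a, 1.67 for Adora2b, -1.54 for P2ry6 and -1.53 for P2rx7. In each of these 4 genes both PNPi+dG/rG+polyU libraries lay on the same side of both polyU libraries. Since the genes were chosen by the same libraries, this is a description and no separate support. Groups of 2 libraries are too small for a test of single outlying samples.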

How the results depend on the processing

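Member counts kept within 1.5 times of their values under every alternative run. Leaving out each library in turn gave against vehicle 5 to 6 members for polyU, 0 to 0 for PNPi+dG/rG, 8 to 8 for PNPi+dG/rG+polyU and 8 to 9 for R848, then 6 to 7 for PNPi+dG/rG+polyU against polyU, 8 to 9 against R848 and 6 to 6 for the interaction, out of 9. A value turned its direction and also changed its call in 2 cases, both under centring on the median gene: P2ry6 with R848 (-0.55 to 0.047) and the interaction of P2rx4 (-0.04 to 0.24). Other values near 0 changed sign without a change of call, such as the interaction of P2ry14 (-0.18 to 0.10 after centring). Centring takes each library's own median off its values, and this amount need not equal the median change between groups. The middle value over the tested genes went from -0.50 to 0.09 for R848. For the interaction it went from -0.27 to 0.02. Of 630 values recomputed with a library left out, 5 lost and 3 gained a call, and of 544 under other settings 5 lost and 6 gained one, both turned values included. P2rx7 with polyU lost its call without the filter (adjusted p = 0.0593) and after centring (0.0524), and without either vehicle or either polyU library. Levels per kb in vehicle moved beyond the spread for 9 of 10 genes when scaled to the longest transcript. Same-numbered libraries did not deviate together (correlation -0.286 to 0.109 over 10 pairs of groups, 8459 genes). With 2 libraries per group this cannot exclude a pairing, such as one under other numbers. A replicate block by these numbers left the counts of members unchanged (6, 0, 8, 9, 6, 8 and 6). In a fit without both R848 libraries, chosen after the fibroblast markers were seen, the counts were the same for the 5 comparisons that do not use them, with Adora3 no longer meeting the filter. The planned count-based tests were not run, and reads recovered from the CPM served only for depth, detection and read ratios, so what such a test would call is not known here. At 3 reads per library Nt5e was at the limit of detection in 2 groups, and with 2 libraries per group small changes, such as the 1.17-fold of P2rx7, depend on each library.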
